A study of Mus musculus with 6 samples.

Results

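Described here are 39 genes that mark the nerve cells, the glia and the pacemaker cells of the gut wall, in colon tissue with tumors from 6 mice, given as C57 in the labels and C57BL/6 in the study's methods. The members were chosen by symbol, as every gene reporter of the arrays whose gene name was on a list of 31 neuronal, 5 glial and 3 pacemaker genes, and they are 39 of the 37325 genes on the arrays, carried by 76 of 56605 gene reporters. All mice carried colitis-associated tumors induced by azoxymethane (AOM), a carcinogen, and dextran sodium sulfate (DSS), which inflames the colon, and no genotype or age is given in the labels. The RG@M-γ-CD group (3 mice) was given, by mouth, a nanomedicine in which regorafenib (RG), an inhibitor of several receptor kinases that Kit is among, is held inside a mannose-bearing γ-cyclodextrin (M-γ-CD), and the PBS group (3 mice) was given the buffer by mouth. Each mouse was measured on 1 one-color Agilent array of whole tissue, so that a lower signal from fewer cells of a type and from less RNA per cell cannot be told apart.

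The enteric nervous system lies between the muscle layers and in the submucosa of the gut. Its neurons set motility, secretion and blood flow, with acetylcholine and tachykinins as main excitatory transmitters and nitric oxide and vasoactive intestinal peptide as main inhibitory ones. Enteric glia ensheathe the neurons, and interstitial cells of Cajal generate the slow waves that pace the smooth muscle around them.

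Values are log2 intensities minus the 75th percentile of all gene reporters on the same array, so that 0 is the level of that percentile and a difference of 1 is a doubling. A gene entered the test when 1 of its reporters stood well above background on each of the 3 arrays of either group. On this rule 29 of the 39 members were tested, 24 neuronal, 2 glial and 3 pacemaker, with 11 of the 12 pan-neuronal genes among them. Most neuronal members and all 3 pacemaker members were thus measured in this tissue, while 3 of the 5 glial members were too dim to test. Which cells gave these signals was not tested. The array of RG@M-γ-CD replicate 1 was marked ExtractionEvaluate in the quality summary of the scanner software and the other 5 ExtractionInRange. Between 49.6% and 55.1% of gene reporters were well above background on each array, and the correlation between arrays across genes, which are not independent replicates, was lowest between RG@M-γ-CD replicates 1 and 2 (r = 0.942).

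Promoter sequences are shown for 4 members to set genes that varied widely between the arrays beside a gene that did not. Vip and Cartpt, for a relaxing peptide and a neuropeptide, differed 11.8- and 9.97-fold between the lowest and the highest array. Th, for tyrosine hydroxylase, differed by 1.32-fold on its only reporter well above background. Syn1, for a synaptic vesicle protein, also varied widely, but its lowest array, PBS replicate 2, was not well above background. Windows run from 250 bases before to 50 bases after the transcription start, 5′ to 3′ on the gene's strand, from RefSeq (GRCm38.p6). They lie at chr10:5638968-5639267 (+ strand) for Vip, chr13:99900634-99900933 (- strand) for Cartpt, chrX:20920869-20921168 (- strand) for Syn1 and chr7:142899946-142900245 (- strand) for Th. Capitals mark the letters TGACGT, the core of the cAMP response element, or the full element TGACGTCA, and in Syn1 also TTCAGCACC, part of the element bound by the neuronal repressor REST.
Vip: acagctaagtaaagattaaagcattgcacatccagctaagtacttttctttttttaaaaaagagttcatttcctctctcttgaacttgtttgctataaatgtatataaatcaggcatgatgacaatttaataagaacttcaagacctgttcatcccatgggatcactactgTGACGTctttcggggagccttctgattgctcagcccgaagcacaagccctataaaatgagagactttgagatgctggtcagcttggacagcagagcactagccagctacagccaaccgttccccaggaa
Cartpt: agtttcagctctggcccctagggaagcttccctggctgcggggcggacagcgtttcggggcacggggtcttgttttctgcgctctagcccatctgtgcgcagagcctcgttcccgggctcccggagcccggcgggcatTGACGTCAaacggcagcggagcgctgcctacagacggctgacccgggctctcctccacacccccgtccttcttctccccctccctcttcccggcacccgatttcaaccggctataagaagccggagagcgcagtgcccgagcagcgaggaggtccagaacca
Syn1: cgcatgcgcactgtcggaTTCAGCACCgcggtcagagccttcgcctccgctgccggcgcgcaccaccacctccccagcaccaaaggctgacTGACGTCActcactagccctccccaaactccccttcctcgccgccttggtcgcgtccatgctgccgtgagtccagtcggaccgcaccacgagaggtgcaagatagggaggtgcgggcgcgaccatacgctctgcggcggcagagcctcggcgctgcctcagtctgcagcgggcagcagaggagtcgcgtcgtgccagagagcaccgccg
Th: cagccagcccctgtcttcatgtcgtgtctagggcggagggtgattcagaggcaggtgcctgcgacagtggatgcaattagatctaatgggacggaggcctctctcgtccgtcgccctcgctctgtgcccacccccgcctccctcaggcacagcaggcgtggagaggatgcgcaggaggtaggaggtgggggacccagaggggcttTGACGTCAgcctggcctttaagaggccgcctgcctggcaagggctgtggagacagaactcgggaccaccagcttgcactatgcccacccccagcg

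The element starts 79 bases before the transcription start in Vip, 112 in Cartpt, 159 in Syn1 and 45 in Th. Promoters of 29 of the 39 members were matched, in 35 windows, and both strands were searched. TGACGT, which is also part of TGACGTCA, was found in 9 member windows (Elavl4, Syn1, Chat, Vip, Cartpt, Th, Ednrb, Gdnf and Foxd3) and in 7.51% of all 32851 windows. TGACGTCA was found in 4 member windows (Syn1, Cartpt, Th and Foxd3) and in 1.79% of all windows, and TTCAGCACC in Syn1 alone of the members and in 0.371% of all windows. Genes that hold TGACGT were found both among the members with the widest spread, such as Vip, and among those with the narrowest, such as Th and Ednrb.

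Reporters of 3 neuropeptide genes are shown because they cross an exon junction and lie in the coding part, so that the measured transcript can be seen. They are given as the scanner files list them (5′ to 3′), with the mm9 interval they span: chr6:7507722-7509136 (+ strand) for the second Tac1 reporter, chr6:49773743-49777505 (+ strand) for Npy and chr13:100668967-100669956 (- strand) for Cartpt.
Tac1: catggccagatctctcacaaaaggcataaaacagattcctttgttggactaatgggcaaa
Npy: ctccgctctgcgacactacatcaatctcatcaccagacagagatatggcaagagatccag
Cartpt: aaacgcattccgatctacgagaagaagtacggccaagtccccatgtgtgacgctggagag

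As labelled, neuronal, glial and pacemaker genes did not differ between RG@M-γ-CD and PBS beyond the spread between mice. None of the 29 tested members passed an adjusted p of 0.05 with limma (0 of 29, against 0% of 19090 genes), and none passed an unadjusted p of 0.05 (0 of 29, against 2.19% of all genes, 419 of them). No member had its 3 arrays of one group all above or all below the other, against 4.57% of all genes. Of the tested members 24 were higher in mean in RG@M-γ-CD (82.8%), against 47.2% of all genes. By class these were 19 of 24 neuronal genes with a median difference of 0.63, both glial genes with a median of 0.41 and all 3 pacemaker genes with a median of 0.15, while the median over all genes tested was -0.01. Every tested member had an adjusted p of 1 with limma in this comparison.

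The spread of the members was wider within the treated group than within the PBS group, and in both it was wider in median than over all genes. The SD over the 3 RG@M-γ-CD arrays was above the SD over the 3 PBS arrays in 26 of 29 members, against 66.2% of all genes, and its median over the members was 1.27 for the treated and 0.45 for the PBS arrays, against 0.30 and 0.21 over all genes. The 6 arrays spanned over 1.5 log2 units in 23 of 29 members, against 16.9% of all genes. RG@M-γ-CD replicate 1 was the lowest of the 6 arrays in 16 of 29 members, against 18.8% of all genes, and RG@M-γ-CD replicate 3 the highest in 20 of 29, against 12.4% of all genes. RG@M-γ-CD replicates 2 and 3 lay above replicate 1 of their own group in 27 of 29 members and above all PBS arrays in 20 of 29, which held for 33.6% and 12.8% of all genes.

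**Figure D1:**
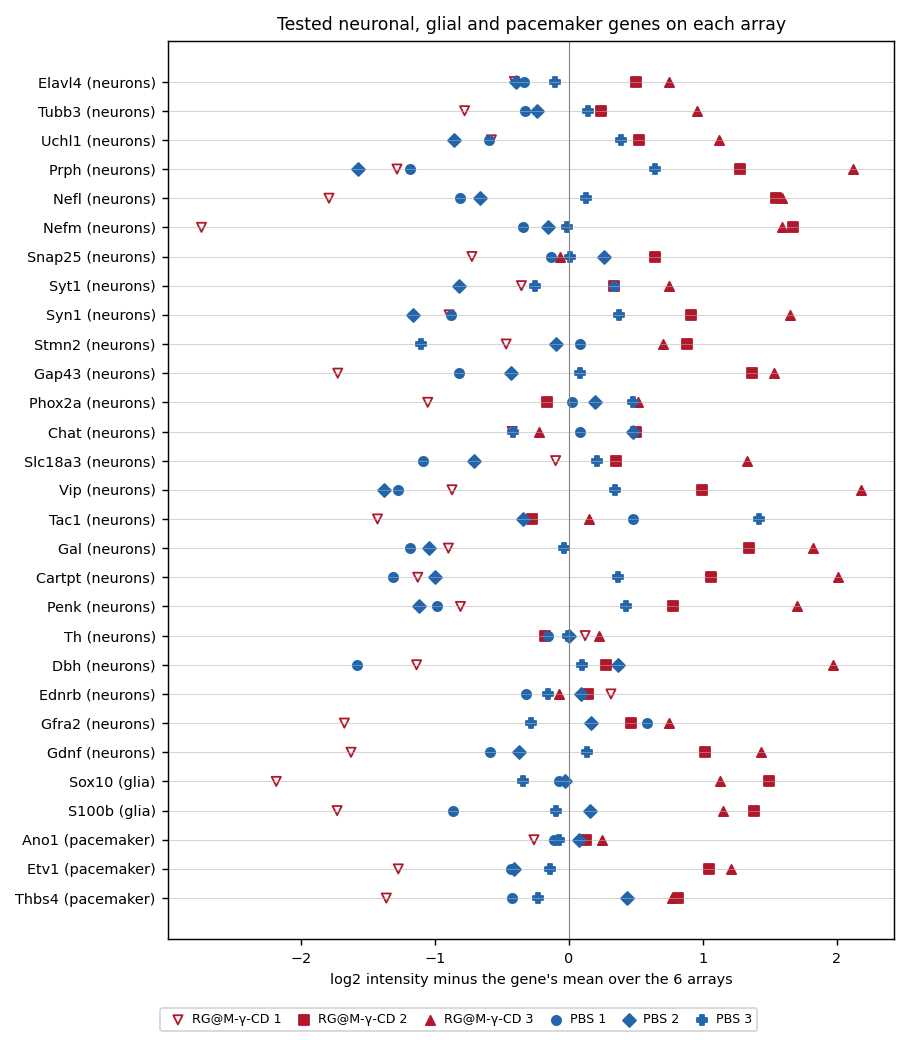
Log2 intensity of each of the 29 tested members on each array, as the deviation from that gene's mean over the 6 arrays (x axis), with 1 gene per line, red for RG@M-γ-CD and blue for PBS and a marker shape for each replicate. The open triangle of RG@M-γ-CD replicate 1 is the leftmost point in 16 genes, and the filled triangle of RG@M-γ-CD replicate 3 the rightmost in 20.

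Among structural genes that all neurons share, the intermediate filaments varied most. Prph, for the peripherin of peripheral neurons, lay at -3.56, -0.999 and -0.156 on RG@M-γ-CD replicates 1, 2 and 3 and at -3.46, -3.85 and -1.63 on PBS replicates 1, 2 and 3. RG@M-γ-CD replicates 2 and 3 were highest, PBS replicate 3 came next, and RG@M-γ-CD replicate 1 lay among the other PBS arrays, so the groups overlapped. The difference in Prph was 1.41 (SE 0.98, unadjusted p = 0.196 with limma), and 2.40 (SE 0.69) without RG@M-γ-CD replicate 1. Nefl, for the light neurofilament chain, was at -4.18, -0.84 and -0.80 in RG@M-γ-CD and at -3.20, -3.05 and -2.26 in PBS. Nefm, for the medium chain, was at -6.34, -1.93 and -2.01 in RG@M-γ-CD and at -3.94, -3.75 and -3.61 in PBS. In both neurofilament genes RG@M-γ-CD replicate 1 lay below every PBS array and the other replicates of its group above every PBS array, and Nefm was not well above background on RG@M-γ-CD replicate 1. The difference was 0.90 (SE 0.92) for Nefl and 0.34 (SE 1.16) for Nefm with all arrays. Leaving out RG@M-γ-CD replicate 1 gave 2.02 (SE 0.31, adjusted p = 0.0568 with limma) for Nefl and 1.80 (SE 0.18, adjusted p = 0.0300 with limma) for Nefm.

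Genes of the cytoskeleton and growth cone followed. Gap43, for a growth cone protein, was measured at -4.19, -1.11 and -0.94 in RG@M-γ-CD and at -3.29, -2.90 and -2.39 in PBS, again with 1 treated array below and 2 above all PBS arrays. Its difference was 0.78 (SE 0.87), or 1.83 (SE 0.29) without RG@M-γ-CD replicate 1. Tubb3, for neuronal β-tubulin, was at -2.16, -1.14 and -0.42 in RG@M-γ-CD and at -1.70, -1.62 and -1.23 in PBS, a smaller span with the same order of treated arrays. Stmn2, for a regulator of microtubules, was at 1.06, 2.41 and 2.23 in RG@M-γ-CD and at 1.61, 1.44 and 0.43 in PBS. Here PBS replicate 3 was the lowest array and RG@M-γ-CD replicate 2 the highest. Uchl1, for the ubiquitin hydrolase known as PGP9.5, was at 1.27, 2.37 and 2.96 in RG@M-γ-CD and at 1.25, 0.99 and 2.23 in PBS, with RG@M-γ-CD replicate 1 inside the PBS range. The differences were 0.28 (SE 0.43) for Tubb3, 0.74 (SE 0.46) for Stmn2 and 0.71 (SE 0.51) for Uchl1, and 0.74, 1.16 and 1.18 when RG@M-γ-CD replicate 1 was left out. The RNA-binding protein gene Elavl4 spanned 1.15 log2 units, from -1.79 in RG@M-γ-CD replicate 1 to -0.64 in RG@M-γ-CD replicate 3, with a difference of 0.56 (SE 0.31).

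Genes of the synaptic vesicle differed among themselves. Syn1, for synapsin, which tethers vesicles, was at -4.10, -2.29 and -1.56 in RG@M-γ-CD and at -4.09, -4.37 and -2.84 in PBS, with RG@M-γ-CD replicate 1 beside PBS replicate 1 and with PBS replicate 2 not well above background. Syt1, for the calcium sensor of release, was at -1.45, -0.76 and -0.34 in RG@M-γ-CD and at -0.75, -1.91 and -1.35 in PBS, where PBS replicate 1 lay beside RG@M-γ-CD replicate 2. The difference was 1.11 (SE 0.71) for Syn1 and 0.49 (SE 0.39) for Syt1, and 1.84 and 0.79 when RG@M-γ-CD replicate 1 was left out. Snap25, for a protein of the fusion complex, spanned 1.37 log2 units, from 0.95 in RG@M-γ-CD replicate 1 to 2.32 in RG@M-γ-CD replicate 2, and its difference was -0.09 (SE 0.35). Elavl3, a neuronal RNA-binding protein gene that was too dim for the test with all arrays, was at -4.74, -2.21 and -2.57 in RG@M-γ-CD and at -3.99, -4.10 and -4.21 in PBS. It was well above background on 2 arrays of each group, with RG@M-γ-CD replicate 1 below every PBS array.

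The transcription factors listed among the neuronal members, Phox2a and Hand2, were lowest on RG@M-γ-CD replicate 1 and highest on RG@M-γ-CD replicate 3. Phox2a, for a homeodomain factor of autonomic neurons, was at -2.98, -2.09 and -1.41 in RG@M-γ-CD and at -1.90, -1.73 and -1.44 in PBS. RG@M-γ-CD replicates 1 and 2 were the lowest arrays and replicate 3 lay just above PBS replicate 3, and the difference was -0.47 (SE 0.40). Leaving out RG@M-γ-CD replicate 1 gave -0.0605, and leaving out replicate 3 gave -0.84 (SE 0.33, unadjusted p = 0.0456 and adjusted p = 0.9999 with limma). Hand2, for a helix-loop-helix factor, was at -4.49, -1.95 and -1.70 in RG@M-γ-CD and at -4.10, -4.04 and -3.01 in PBS, above background on 2 arrays of each group and not tested with all arrays.

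For acetylcholine, the vesicle transporter spanned more than the synthesizing enzyme, each by a reporter well above background on all arrays. Slc18a3, which loads acetylcholine into vesicles, was at -2.97, -2.52 and -1.55 in RG@M-γ-CD and at -3.96, -3.58 and -2.66 in PBS. PBS replicate 3 was the only PBS array within the range of the treated arrays, above RG@M-γ-CD replicate 1. Its mean was -2.35 ± 0.73 (SD, n = 3) over the treated arrays against -3.40 ± 0.67 (SD, n = 3) over the PBS arrays, and its difference of 1.05 (SE 0.47, unadjusted p = 0.0620 with limma) had the lowest unadjusted p of the members. Slc5a7, which takes up choline, was well above background on RG@M-γ-CD replicates 2 and 3 and on no PBS array, with -6.74, -3.35 and -2.59 in RG@M-γ-CD and -5.38, -6.14 and -5.52 in PBS. RG@M-γ-CD replicate 1, not well above background, was the lowest array, so no group direction and no bound can be read for Slc5a7. The second Slc5a7 reporter was well above background on the same arrays only. Chat, for choline acetyltransferase, spanned 0.92 log2 units, from -3.95 to -3.03, with a difference of -0.10 (SE 0.33). Its other reporters were well above background on no array.

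Among the 29 tested members, each by its brightest reporter, the neuropeptide genes Vip and Gal had the 2 largest differences. Vip, for vasoactive intestinal peptide, which relaxes muscle and drives secretion, was at -0.995, 0.871 and 2.06 in RG@M-γ-CD and at -1.40, -1.50 and 0.22 in PBS. Its mean was 0.64 ± 1.54 (SD, n = 3) over the treated arrays against -0.89 ± 0.96 (SD, n = 3) over the PBS arrays, a difference of 1.54 (SE 0.84, unadjusted p = 0.112 with limma). Gal, for galanin, was at -0.66, 1.58 and 2.06 in RG@M-γ-CD and at -0.95, -0.81 and 0.20 in PBS, a difference of 1.51 (SE 0.73, unadjusted p = 0.0807 with limma). In both genes PBS replicate 3 lay above RG@M-γ-CD replicate 1, which is what made the groups overlap. Cartpt, for the CART peptide, was at -2.81, -0.62 and 0.33 in RG@M-γ-CD and at -2.99, -2.68 and -1.31 in PBS, a difference of 1.29 (SE 0.85). Penk, for the precursor of the enkephalins, was at 0.74, 2.32 and 3.25 in RG@M-γ-CD and at 0.57, 0.43 and 1.98 in PBS, a difference of 1.11 (SE 0.71). The order of the treated arrays was the same in these 4 genes, and PBS replicate 3 was the highest PBS array in each. Without RG@M-γ-CD replicate 1 the differences were 2.36 (SE 0.62) for Vip, 2.34 (SE 0.39) for Gal, 2.18 (SE 0.56) for Cartpt and 1.80 (SE 0.54) for Penk.

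Tac1, for substance P and neurokinin A, went the other way. Its brighter reporter was at 1.79, 2.94 and 3.36 in RG@M-γ-CD and at 3.69, 2.87 and 4.64 in PBS, and the reporter across the exon junction shown above was at -0.09, 0.64 and 0.92 in RG@M-γ-CD and at 1.47, 0.87 and 2.45 in PBS. On both reporters PBS replicate 3 was the highest array and RG@M-γ-CD replicate 1 the lowest. The difference was -1.04 (SE 0.56, unadjusted p = 0.111 with limma) on the brighter reporter and -1.11 on the other, the most negative difference among the tested members, though not past the threshold. Without RG@M-γ-CD replicate 1 the difference was -0.58. Npy, for neuropeptide Y, was above background on 2 arrays of each group and was highest on PBS replicate 1, with -3.70, -4.85 and -3.18 in RG@M-γ-CD and -1.87, -3.04 and -4.93 in PBS.

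**Figure D2:**
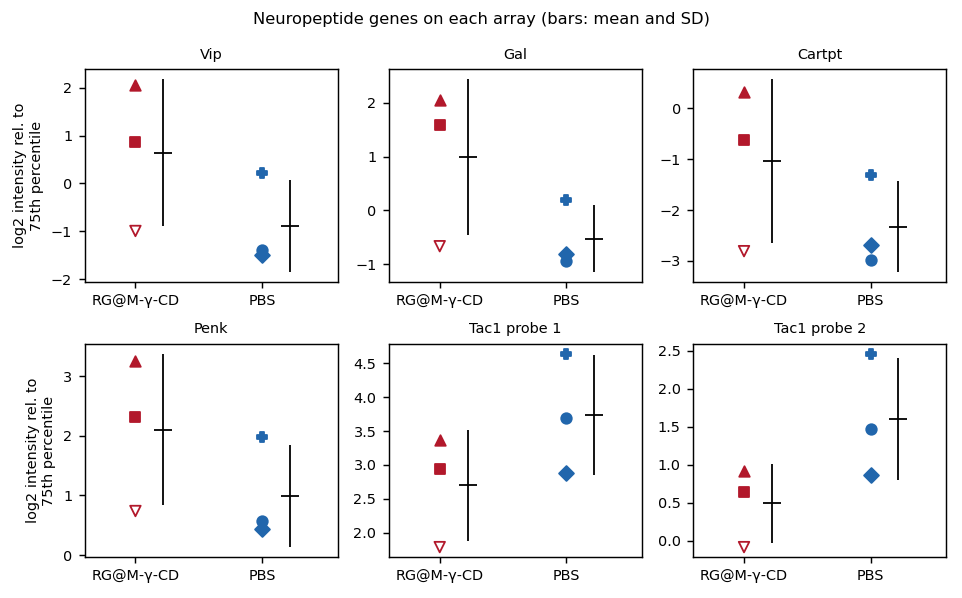
Log2 intensity relative to the array's 75th percentile (y axis) of Vip, Gal, Cartpt, Penk and the 2 brighter Tac1 reporters in RG@M-γ-CD (red) and PBS (blue), with a marker shape for each replicate and bars for mean and SD (n = 3). In Vip, Gal, Cartpt and Penk the open triangle of RG@M-γ-CD replicate 1 sits level with PBS, and in Tac1 PBS replicate 3 is highest.

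Of the remaining transmitter markers, Nos1 and Calb2 were at the edge of detection. Nos1, for neuronal nitric oxide synthase, was well above background on 1 array, PBS replicate 3, with -5.42, -5.63 and -4.97 in RG@M-γ-CD and -6.00, -6.24 and -4.50 in PBS. Calb2, for calretinin, was well above background on PBS replicate 3 with 1 reporter (-2.33) and on RG@M-γ-CD replicate 3 with another (-3.96), so its reporters disagreed. No direction can be read for either gene. Each catecholamine gene was read by 1 reporter well above background on all arrays, while its second reporter was so on no array. Dbh, for dopamine β-hydroxylase, which makes noradrenaline, was at -3.28, -1.87 and -0.17 in RG@M-γ-CD and at -3.73, -1.78 and -2.05 in PBS. Its difference of 0.74 (SE 0.86) came from RG@M-γ-CD replicate 3, since it was -0.06 without that array. Th, the rate-limiting enzyme of catecholamine synthesis, spanned 0.40 log2 units, from -2.53 to -2.13, the narrowest span of the tested members, with a difference of 0.11 (SE 0.17).

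The trophic ligand and receptor genes are counted in the neuronal class, and which cells gave their signal was not tested. Gdnf, the ligand that supports enteric neuron precursors, was at -4.62, -1.98 and -1.56 in RG@M-γ-CD and at -3.58, -3.37 and -2.86 in PBS. RG@M-γ-CD replicate 1, where Gdnf was not well above background, was below and the other treated arrays above all PBS arrays, and the difference was 0.55 (SE 0.78), or 1.501 (SE 0.275) without RG@M-γ-CD replicate 1. Gfra2, for the neurturin co-receptor, was at -2.64, -0.50 and -0.22 in RG@M-γ-CD and at -0.38, -0.80 and -1.24 in PBS, a difference of -0.31 (SE 0.65) that was 0.45 without RG@M-γ-CD replicate 1. Gfra1, for the GDNF co-receptor, was well above background on no array, with -6.78, -4.93 and -5.45 in RG@M-γ-CD and -6.56, -6.14 and -4.59 in PBS. Ednrb, for the endothelin receptor that enteric precursors need, spanned 0.63 log2 units, from -2.79 to -2.16, with a difference of 0.26 (SE 0.19), and RG@M-γ-CD replicate 1 was its highest array.

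The 2 tested glial genes lay far apart on the treated arrays. Sox10, the transcription factor that keeps enteric glia, was at -5.57, -1.90 and -2.26 in RG@M-γ-CD and at -3.46, -3.42 and -3.73 in PBS. S100b, for a calcium-binding protein of glia, was at -3.45, -0.34 and -0.57 in RG@M-γ-CD and at -2.58, -1.56 and -1.81 in PBS. In both genes RG@M-γ-CD replicate 2 was highest, replicate 3 next and replicate 1 lowest, with all PBS arrays between. Sox10 was not well above background on RG@M-γ-CD replicate 1, so its mean and SD in that group rest on a value that is not a measured level. The mean of Sox10 was -3.24 ± 2.03 (SD, n = 3) over the treated arrays against -3.54 ± 0.17 (SD, n = 3) over the PBS arrays, a difference of 0.29 (SE 0.93), and that of S100b was 0.53 (SE 0.83). Without RG@M-γ-CD replicate 1, Sox10 was higher by 1.46 (SE 0.20, adjusted p = 0.0443 with limma) and S100b by 1.53 (SE 0.33, adjusted p = 0.115 with limma). Without RG@M-γ-CD replicate 2 the difference was -0.38 for Sox10 and -0.02 for S100b.

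The other glial members were too dim to test with all arrays. Gfap, for the intermediate filament of glia, was at -5.34, -2.70 and -2.71 in RG@M-γ-CD and at -3.99, -4.97 and -3.74 in PBS. Foxd3, for a neural crest transcription factor, was at -5.38, -2.48 and -3.61 in RG@M-γ-CD and at -4.24, -4.14 and -4.41 in PBS. Both were well above background on 2 arrays of each group, with RG@M-γ-CD replicate 1 the lowest and replicate 2 the highest array. Cdh19, for a cadherin of Schwann cell precursors, was well above background on no array, at -6.65, -4.75 and -5.02 in RG@M-γ-CD and -6.55, -6.05 and -6.64 in PBS.

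All 3 pacemaker genes were lowest on RG@M-γ-CD replicate 1, with spans of very different widths. Ano1, for the chloride channel of the slow wave, which secretory epithelium also makes, was at 5.11, 5.50 and 5.62 in RG@M-γ-CD and at 5.26, 5.44 and 5.30 in PBS. Its mean was 5.41 ± 0.27 (SD, n = 3) over the treated arrays against 5.33 ± 0.10 (SD, n = 3) over the PBS arrays, a difference of 0.08 (SE 0.19). Etv1, the transcription factor of interstitial cells of Cajal, was at -1.51, 0.81 and 0.97 in RG@M-γ-CD and at -0.67, -0.65 and -0.38 in PBS. The treated arrays of Etv1 again lay on either side of all PBS arrays, and its difference was 0.65 (SE 0.65), or 1.45 (SE 0.18, adjusted p = 0.0365 with limma) without RG@M-γ-CD replicate 1. Thbs4, for a matrix glycoprotein, was at 3.32, 5.50 and 5.45 in RG@M-γ-CD and at 4.25, 5.11 and 4.45 in PBS, a difference of 0.15 (SE 0.62), or 0.87 (SE 0.29) without RG@M-γ-CD replicate 1. Kit, the receptor by which these cells are usually recognized and not a member, was at 0.42, 2.39 and 1.37 in RG@M-γ-CD and at 1.02, 1.61 and 1.26 in PBS, with RG@M-γ-CD replicate 1 lowest and replicate 2 highest, and a difference of 0.10 (SE 0.49). The 8 tested pacemaker and interstitial genes outside the members, Kit among them, did not share this order as a list. Their mean deviation from each gene's 6-array mean was 0.13, -0.23 and 0.004 in RG@M-γ-CD and -0.12, 0.09 and 0.13 in PBS. Among these 8 genes RG@M-γ-CD replicate 1 was the highest array in 3 and replicate 2 the lowest in 4.

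The member counts changed when RG@M-γ-CD replicate 1 was left out, which was one of 6 such fits, each without 1 array. Of the 29 members tested with all arrays, 27 were then higher in RG@M-γ-CD. An adjusted p of 0.05 with limma was passed by 3 of them (Nefm, Sox10 and Etv1), all higher, against 0.702% of the 19090 genes, counting only higher genes. An unadjusted p of 0.05 was passed by 19 of the 29, all higher, against 6.12% of the same genes, again counting only higher ones. The 2 remaining RG@M-γ-CD arrays lay above all PBS arrays in 20 of the 29, against 12.8%. The median difference of these members was 1.27 for neuronal, 1.495 for glial and 0.87 for pacemaker genes. Smooth muscle genes that passed the filter of this fit had a median difference of 1.76. A further 5 members (Elavl3, Hand2, Slc5a7, Gfap and Foxd3) entered this fit only because the 2 remaining treated arrays, on which they are high, stood well above background, so their being higher is no result. With them the counts were 5, 24 and 25 of 34, against 0.837%, 7.05% and 13.7% of 19466 genes, counting only higher genes. Counting both directions, the shares of all genes were 1.04%, 12.5% and 25.9%. Without any other array, 0 members passed the adjusted threshold.

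**Figure D3:**
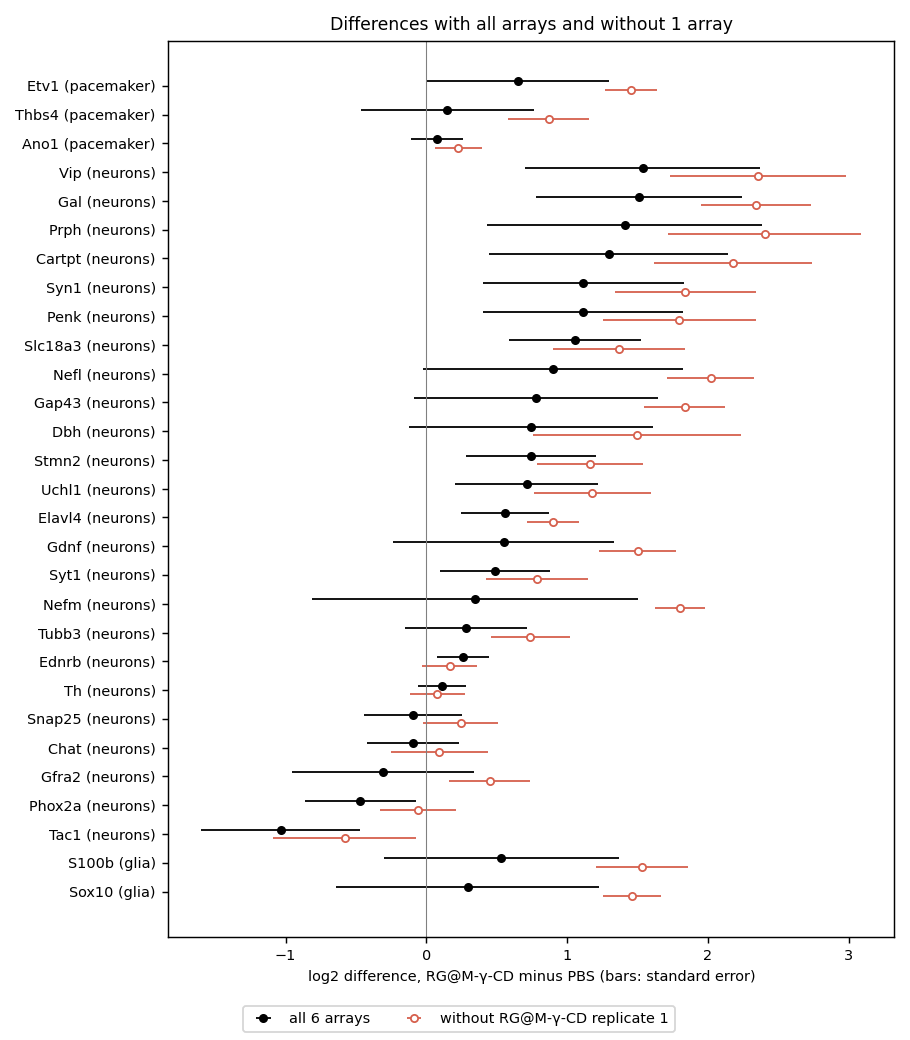
Log2 difference between RG@M-γ-CD and PBS (x axis) with its standard error for each of the 29 tested members, with all 6 arrays (filled) and without RG@M-γ-CD replicate 1 (open). The open point lies to the right of the filled one for most genes, such as Nefm (0.34 and 1.80) and Sox10 (0.29 and 1.46), and hardly moves for Th and Ednrb.

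Fits with a replicate block and with another arrangement of the arrays gave 0 members past the adjusted threshold. With the replicate number as a block, 5 of 29 members passed an unadjusted p of 0.05 with limma, against 2.43% of all genes. All 5 were higher (Slc18a3, Vip, Gal, Cartpt and Penk), and 0.932% of all genes passed and were higher. Clustering shown by the study sets RG@M-γ-CD replicates 2 and 3 with PBS replicate 1 against RG@M-γ-CD replicate 1 with PBS replicates 2 and 3, and names neither branch as treated. It would follow the labels if those of RG@M-γ-CD replicate 1 and PBS replicate 1 were exchanged, which was not tested, so every direction given here rests on the labels as deposited. In that arrangement 7 of 33 members passed an unadjusted p of 0.05 with limma, against 16.5% of all genes. All 7 were higher on the first branch, where 7.76% of all genes passed and were higher. Members that did not overlap numbered 4 of 33, against 25.5% of all genes. These 4 were higher on the first branch, which held for 7.07% of all genes.

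Smooth muscle genes moved with the neuronal, glial and pacemaker members across the arrays. All 12 tested smooth muscle genes of 14 had their lowest value on RG@M-γ-CD replicate 1, and their summed linear signal, in units of the array's 75th percentile, ranged from 109.9 to 838.4 in RG@M-γ-CD and from 206.4 to 239.5 in PBS. Myh11, for the smooth muscle myosin heavy chain, was at 1.26, 4.37 and 4.49 in RG@M-γ-CD and at 2.496, 2.07 and 2.40 in PBS, and Acta2, for smooth muscle actin, at 4.602, 7.16 and 7.33 and at 5.63, 5.43 and 5.48. All 12 were higher in mean in RG@M-γ-CD, with a median difference of 0.93, and none passed an unadjusted p of 0.05. As a mean deviation from each gene's own 6-array mean, the neuronal members stood at -0.94, 0.68 and 1.103 on the RG@M-γ-CD arrays and at -0.51, -0.45 and 0.12 on the PBS arrays. Glial members stood at -1.96, 1.44 and 1.14 and at -0.47, 0.06 and -0.22, and pacemaker members at -0.96, 0.66 and 0.74 and at -0.32, 0.03 and -0.15. Smooth muscle genes stood at -1.30, 1.24 and 1.43 and at -0.32, -0.60 and -0.45, so that the same treated array was low and the same treated arrays were high in all 4 lists. The part of the muscle content in the member values was not tested.

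Relative to the smooth muscle genes of the same array, a comparison chosen after the values were seen, the neuronal members stood at 0.37, -0.57 and -0.33 in RG@M-γ-CD and at -0.19, 0.15 and 0.57 in PBS. On this scale their mean was -0.18 ± 0.49 (SD, n = 3) over the treated arrays against 0.18 ± 0.38 (SD, n = 3) over the PBS arrays, and the groups overlapped. Against smooth muscle, the mean was also lower in RG@M-γ-CD, with differences of -0.50 for glial and -0.62 for pacemaker members. SDs over the RG@M-γ-CD and PBS arrays were 0.43 and 0.40 for glial and 0.56 and 0.31 for pacemaker members. The groups overlapped in both classes. PBS replicate 3 was the array with the most neuronal signal relative to muscle, and it was the highest PBS array in 17 of 29 members, which held for 33.1% of all genes.

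The order of the arrays was not limited to nerve and muscle genes. Enteroendocrine genes, which share peptides and granule proteins with neurons, were lowest on RG@M-γ-CD replicate 1 in 9 of 11 genes and highest on RG@M-γ-CD replicate 2 in 8, with a mean deviation of -1.38, 1.02 and 0.56 in RG@M-γ-CD and of -0.29, 0.28 and -0.19 in PBS. Uchl1, Snap25 and several peptide genes are also made by enteroendocrine cells, and the part of these cells in their values was not tested. Fibroblast genes were lowest on RG@M-γ-CD replicate 1 in 8 of 10 genes, with a mean deviation of -0.61, 0.60 and 0.27 in RG@M-γ-CD and of -0.16, 0.07 and -0.17 in PBS. Epithelial and leukocyte genes differed from this order. The 12 epithelial genes had a median difference of 0.01, with a mean deviation of -0.01, -0.13 and 0.11 on the RG@M-γ-CD arrays and of -0.30, 0.22 and 0.10 on the PBS arrays. Leukocyte genes ran opposite, at 0.34, -0.93 and -0.67 in RG@M-γ-CD and at 0.73, 0.30 and 0.24 in PBS, and all 11 tested were lower in mean in RG@M-γ-CD.

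**Figure D4:**
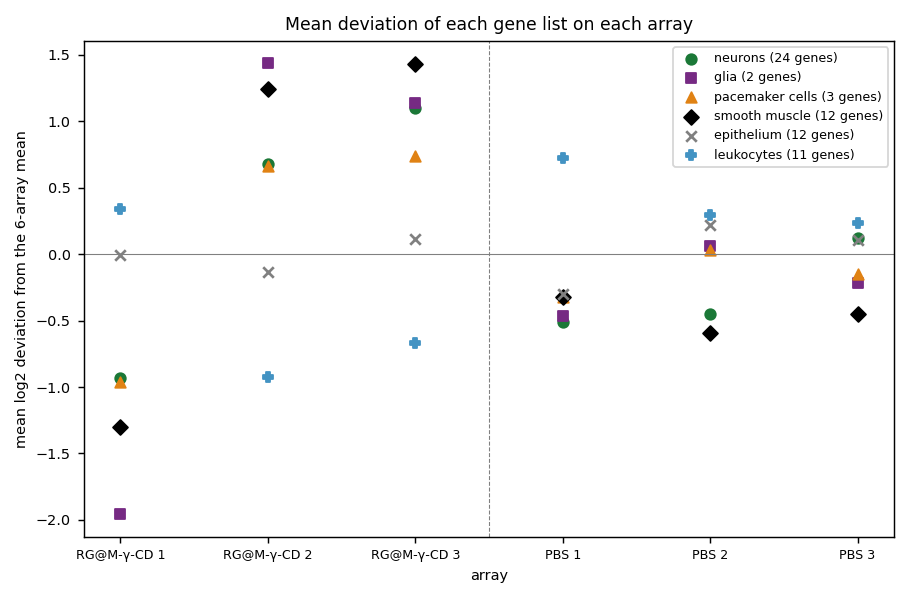
Mean deviation of the log2 intensity from each gene's 6-array mean (y axis) on each array (x axis) for the neuronal (24), glial (2) and pacemaker (3) members and for smooth muscle (12), epithelial (12) and leukocyte (11) genes. On RG@M-γ-CD replicate 1 the neuronal, glial, pacemaker and smooth muscle points lie between -1.96 and -0.94, on replicates 2 and 3 of that group between 0.66 and 1.44, and the epithelial points stay between -0.30 and 0.22.

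Further genes chosen for these cell types, in lists that hold no member, were mostly higher in mean in RG@M-γ-CD for neurons and glia. This did not hold for the pacemaker and interstitial list. Which cells gave the signals of these lists was not tested. Of 30 other enteric neuron genes 19 were tested, 16 were higher in RG@M-γ-CD, none passed an unadjusted p of 0.05, and the median difference was 0.39. The range ran from Cadps, for a protein that primes vesicles (-1.25, SE 0.52, unadjusted p = 0.0510 with limma), to Rab3c, for a vesicle GTPase (1.04, SE 0.78). Of 15 other glial genes 14 were tested and 12 were higher, with a median of 0.20, from Fabp7, for a fatty acid binding protein (-0.13), to Cryab, for a small heat shock protein that muscle also makes (0.86). Ngfr, for the neurotrophin receptor p75, was the only gene of these lists past an unadjusted p of 0.05 (0.50, SE 0.19, unadjusted p = 0.0370, adjusted p = 1 with limma), at -1.09, -1.04 and -0.60 in RG@M-γ-CD and at -1.28, -1.56 and -1.40 in PBS, with no overlap. Of 10 other pacemaker and interstitial genes 8 were tested and 3 were higher, with a median of -0.09, from Prkcq (-0.39) to Kitl, for the ligand of Kit (0.19). Of 11 neurotrophic and endothelin ligands 8 were tested and 6 were higher, with a median of 0.27, from Nrg1, for neuregulin (-0.47), to Ntf3, for neurotrophin 3 (0.70).

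The genes whose values over the 6 arrays were most like the mean of the 11 tested pan-neuronal members had a Pearson r of 0.994 to 0.998. They were Stum, Six5, Scg2, Cald1, 2210408F21Rik, Adgrb2 and 2 reporters without a gene symbol. Scg2, for secretogranin II of secretory granules, was at -1.43, 1.03 and 1.43 in RG@M-γ-CD and at -0.81, -0.98 and 0.05 in PBS, and Cald1 is known for caldesmon, which binds actin in smooth muscle. These correlations share 6 arrays and describe them.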

How the data were processed

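Colon tissue with tumors from 6 mice was hybridized to 1-color Agilent arrays, 1 slide and 1 scan, with PBS replicates 2 and 3 in its second row. Spot intensities were deposited by the authors from Agilent Feature Extraction 10.7.1.1 (submitters' processing notes), corrected for background and not normalized between arrays. The log2 values per probe, also deposited by the authors, were an alternative. Control and outlier spots were left out, spots of a reporter averaged, and each array's 75th percentile subtracted. Of 56605 gene reporters 58.3% were named through their accession, the others by the files. Each gene was represented by its brightest reporter well above background on all 3 arrays of a group. Groups followed the labels and were compared with limma 3.58.1 in R 4.3.3, with Benjamini-Hochberg adjustment over all 19090 genes and a threshold of 0.05. The fit was tested on simulated data. No counts exist, and the number of arrays limits the precision.

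Members and lists were chosen with earlier results of these data known. Values on every array are given for members that spanned over 1.5 log2 units or were among the 3 largest differences of their class, other members by range, from each related list the largest rise and fall, and the 8 genes most like the pan-neuronal mean. Alternatives were normexp correction with an offset of 50, quantile normalization, the authors' table, other filters and reporter rules, outlier spots kept, a replicate block, the methods' unpaired test, the slide row, another arrangement of the arrays, and each array left out. The same replicate number pairs no mice in the labels.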

Additional observations from a re-analysis of the deposited data

How the results depend on the processing

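With normexp correction, quantile normalization, the authors' table, no filter, a filter on all 6 arrays, averaged reporters, outlier spots kept and the methods' test, no tested member changed direction and 0 passed an adjusted or unadjusted p of 0.05. With the replicate block, 5 of 29 members passed an unadjusted p of 0.05, against 2.43% of all genes, all 5 at a fold change of at least 2. Deviations of same-numbered arrays correlated at -0.25, -0.23 and 0.14, so the replicate numbers were not taken as pairs. With the slide row as a term, Snap25 was at 0.0839 and Syt1 at -0.0951. With RG@M-γ-CD replicates 2 and 3 and PBS replicate 1 against the other arrays, 7 of 33 members passed an unadjusted p of 0.05, against 16.5% of all genes. Of these members 6 had a fold change of 2, and 4 of the 33 did not overlap, against 25.5% of all genes. In this arrangement Chat (0.24), Ednrb (-0.16), Gfra2 (1.19), Phox2a (0.25), Snap25 (0.30), Tac1 (0.23) and Th (-0.0741) changed sign.

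Leaving out each array in turn, the members past an adjusted p of 0.05 numbered 0 to 5, past an unadjusted p of 0.05 0 to 24, with a fold change of 2 as well 0 to 21, and not overlapping 0 to 25, and the median difference ranged from 0.28 to 1.498 for neuronal, from -0.20 to 1.49 for glial and from -0.0295 to 0.87 for pacemaker members; each highest value came without RG@M-γ-CD replicate 1. The counts and the neuronal and glial medians there are over 34 members in all, 5 of which entered without that array only through the treated arrays on which they are high. Over all genes tested in these fits, 0% to 1.04% passed the adjusted p, 1.25% to 12.5% the unadjusted p, and 7.52% to 25.9% did not overlap. Members that did not overlap numbered 6 of 30 without PBS replicate 3 (7.52% of all genes) and 2 of 33 without PBS replicate 2 (11.5%). They numbered 2 of 29 without RG@M-γ-CD replicate 3 (7.64%) and 1 of 30 without RG@M-γ-CD replicate 2 (14.8%). Signs changed in 17 single-gene fits. Without RG@M-γ-CD replicate 1 these were Chat (0.0914), Gfra2 (0.45) and Snap25 (0.24), without replicate 2 Nefm (-0.40), S100b (-0.0225), Sox10 (-0.38) and Thbs4 (-0.22), and without replicate 3 Ano1 (-0.0295), Dbh (-0.057), Gdnf (-0.0293), Nefm (-0.36), Sox10 (-0.20), Thbs4 (-0.20) and Tubb3 (-0.13). Without PBS replicate 1 this was Thbs4 (-0.0268), and without PBS replicate 2 Chat (0.12) and Snap25 (0.0123). Over the fits without 1 array the difference ran from -0.0295 to 0.23 for Ano1, from -0.37 to 0.12 for Chat, from -0.057 to 1.498 for Dbh, from -0.0293 to 1.501 for Gdnf, from -0.76 to 0.45 for Gfra2, from -0.40 to 1.80 for Nefm, from -0.0225 to 1.53 for S100b, from -0.44 to 0.24 for Snap25, from -0.38 to 1.46 for Sox10, from -0.22 to 0.87 for Thbs4 and from -0.13 to 0.74 for Tubb3. The cause was not tested. With 3 arrays a group, and 2 after leaving one out, the glial members too dim to test limit what can be said of glia.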
